A study of Canis lupus familiaris with 89 samples.

Results

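Within benign mammary tumors of dogs, libraries with high MKI67 (ENSCAFG00000013255) were compared with libraries with low MKI67. The 41 benign libraries of the series, out of 89 libraries in all, were ranked by MKI67 in the table of scores that the authors deposited, so the groups were chosen by measured MKI67 values. The 14 highest formed the MKI67-high group, the 14 lowest the MKI67-low group, and the 13 between them were left out of the contrast. Polyadenylated RNA of mammary tissue from 16 dogs of diverse breeds was sequenced, and the other tissue classes of the series are 22 malignant and 26 normal libraries, the last mostly of non-neoplastic lesions. The labels used here record no agent, genotype or age for any group, and most dogs gave several tissue samples. The MKI67-high group held 9 adenomas and 5 complex adenomas from 11 dogs, and the MKI67-low group 7 adenomas and 7 complex adenomas from 8 dogs. A complex adenoma is a benign tumor with a myoepithelial beside a luminal epithelial component. Only 4 dogs, numbered 29, 36, 66 and 89, gave libraries to both groups, 5 to MKI67-high and 7 to MKI67-low.

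MKI67 encodes the Ki-67 protein, which coats chromosomes during cell division and is present in dividing cells but not in resting ones. In mammary tumors of dogs and women its staining is used to grade proliferation. Estrogen receptor alpha (ESR1) and the progesterone receptor (PGR) mark hormone-sensitive luminal cells of the gland, which in the normal gland seldom divide themselves and act on their neighbors through secreted factors.

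The scores that chose the groups ran from 0.467 to 1.51 in MKI67-high libraries and from -2.46 to -0.222 in MKI67-low libraries, in units of the SD of the gene over the series. Just outside the limits, the highest library left out scored 0.428 and the lowest -0.186. From the read counts, MKI67 had a lowest level of 6.29, a median of 23.5 and a highest level of 48.9 CPM (counts scaled to the library's size) in MKI67-high libraries, against 0.729, 4.29 and 26.0 CPM in MKI67-low libraries. The groups overlapped on this scale: 6 MKI67-low libraries lay above the lowest MKI67-high library. Scores ran with CPM within dogs, but between dogs a library of higher CPM could score lower. Dog 69 had a middle library at 43.9 CPM (score 0.196) and an MKI67-low one at 26.0 CPM (score -0.483). Dogs 17 and 59 had MKI67-high libraries at 7.78 and 6.29 CPM (scores 0.643 and 0.564). The groups thus do not give the MKI67 level across dogs. A ranking by CPM would have placed 10 of the 14 MKI67-high and 9 of the 14 MKI67-low libraries in the same group, and 2 MKI67-high libraries and 1 MKI67-low library in the opposite one. Within the 4 dogs with both groups the order was plain: in dog 29 MKI67 was 26.0 CPM in the MKI67-high library and 0.729 CPM in the MKI67-low one, and in dog 36 it was 13.1 and 0.953 CPM. Dog 66 had 28.4 and 22.9 CPM in its MKI67-high libraries and 6.50, 5.12 and 2.04 CPM in its MKI67-low libraries. These values chose the groups and carry no test.

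**Figure D1:**
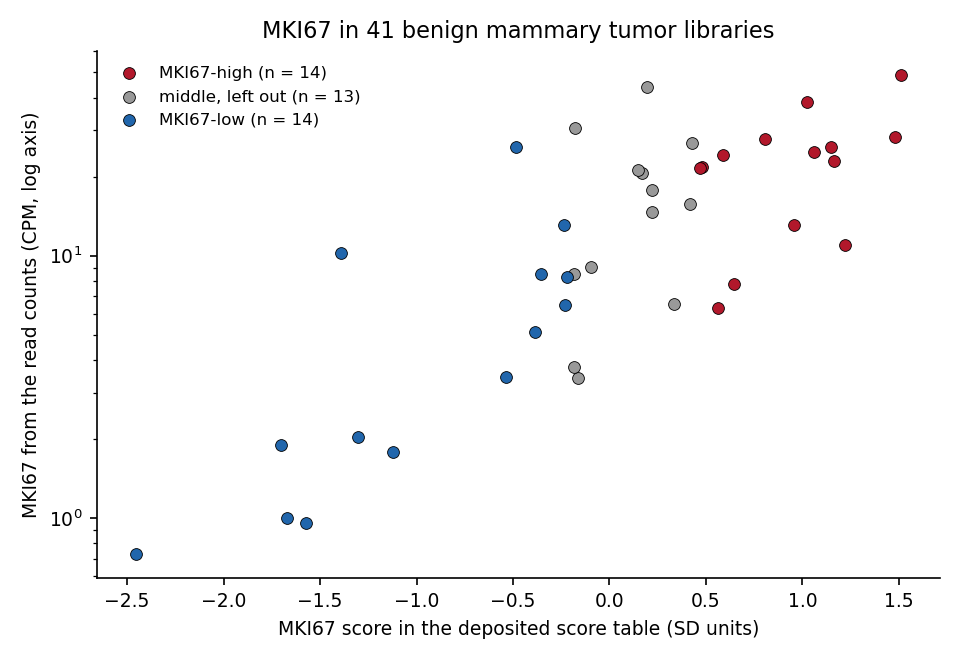
MKI67 in the 41 benign libraries, as the score in the deposited table (horizontal axis, SD units) and as CPM from the read counts (vertical axis, logarithmic). Points are libraries; MKI67-high libraries (14, red) start at a score of 0.467 and MKI67-low libraries (14, blue) end at -0.222, while in CPM 6 MKI67-low libraries lie above the lowest MKI67-high library.

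Gene reads per library ran from 21.996 to 61.7 M in MKI67-high and from 10.7 to 61.5 M in MKI67-low libraries. The RNA integrity number averaged 9.39 ± 0.599 in MKI67-high and 8.94 ± 0.682 in MKI67-low libraries (SD, n = 14 each). The difference after centring within dogs was 0.293, with an adjusted p of 0.394 in a two-sided permutation test that kept labels within dogs. In dog 29 the number was 10 in the MKI67-high and 7.4 in the MKI67-low library, with 51.9 and 10.7 M gene reads. In dog 36 it was 9.6 and 9.1. In dog 89 it was 9.2 in the MKI67-high library, and 8.6 and 7.8 in the MKI67-low ones. Dog 66 had 9.7 and 8.9 in MKI67-high libraries, and 9.5, 9.2 and 9.3 in MKI67-low ones. Tumor diameter, for which the labels give no unit, had a median of 0.600 in MKI67-high and 1.00 in MKI67-low libraries, with a dog-centred difference of -0.395 on the log2 scale and an adjusted p of 0.394 in the same permutation test. Neither gene reads (adjusted p = 0.395) nor the share of complex adenomas (adjusted p = 1) differed past the threshold in that permutation test, adjusted over the 4 measures. Only 2 of the 20 sequencing runs that held these libraries contained both groups, so that run and group cannot be told apart in the other runs. Skeletal muscle RNA stood out in 1 MKI67-high library, benign replicate 5 of dog 17, where the 7 tested muscle genes summed to 33115 CPM, against at most 631 CPM in MKI67-low libraries. Without that library and another MKI67-high one with raised muscle genes, 224 genes were called in place of 250.

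Genes were tested with edgeR's quasi-likelihood test in 1 fit of all 41 benign libraries with dog in the model, and called below 0.05 after Benjamini-Hochberg adjustment. Fold changes are log2 values of MKI67-high over MKI67-low libraries with their standard error (SE). They weigh differences within dogs, so they can exceed the difference between group medians. Dogs 34, 47, 59, 70 and 83 gave MKI67-high libraries only, dog 54 MKI67-low ones only and dog 1 a middle one only. Their libraries count in the CPM ranges but do not inform the fold changes, so omitting any of these dogs can hardly move a fold change. Dogs 13, 17, 18, 69 and 82 inform the fold changes only by way of their middle libraries. Of 16151 genes tested, MKI67 aside, 250 were called (1.55%): 198 rose (1.23%) and 52 fell (0.322%). No gene had groups free of overlap in CPM (0.0% in either direction). At an unadjusted p under 0.05 in edgeR, 6.85% of all genes tested were higher and 6.95% lower. DESeq2 called 845 of the 16151 genes, 422 higher and 423 lower. Counts of list members below are to be read beside these totals. Most calls rest on dog being in the model. Of the 55 called genes named here, 10 stayed called without dog in the model, where 45 had a log2 fold change more than 1.5 times smaller, 16 with dog as a random effect in limma, and 1, KIF20A, with sequencing run added. With RNA integrity number as a covariate 30 of the 55 stayed called, against 50 in the libraries where it is known. With log2 diameter as a covariate 24 stayed called, against 37 in the libraries with a known diameter. In simulated counts of this contrast 38 of 100 genes changed 2-fold and 80 of 100 changed 4-fold were called. A gene or list without a call, in any paragraph below, is therefore not shown to be unchanged. Because the groups were made from MKI67, each difference is an association with MKI67 in the same libraries. In these bulk samples a fall in a gene cannot be told apart from a fall in the number of cells that express it.

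Genes of DNA replication and mitosis led the increases and are given as a description only, since MKI67 itself is a gene of dividing cells. Of 27 tested genes of S phase 16 rose and 0 fell, with a median log2 fold change of 0.98, and of 28 genes of G2 and mitosis 27 rose, with a median of 2.04. The median over all genes tested was -0.0016. TOP2A, the DNA-untangling topoisomerase of dividing cells, had a lowest level of 22.001, a median of 110 and a highest level of 280 CPM in MKI67-high libraries, against 3.71, 29.2 and 75.9 CPM in MKI67-low libraries, a log2 fold change of 2.40 ± 0.33. The mitotic kinesins KIF20A and KIF23 changed by 2.75 ± 0.32 and 2.52 ± 0.32, cyclin B1 (CCNB1) by 3.32 ± 0.48, and the replication licensing genes MCM2 and MCM5 by 1.42 ± 0.21 and 1.73 ± 0.25. All 6 were higher in 4 of 4 dogs with both groups. CCNB1 was 1.93 (adjusted p = 0.10) and MCM5 1.10 (adjusted p = 0.12) without dog in the model, where the other 4 stayed called. Many increases outside these lists were also genes of cell division: among the 12 largest increases, ANLN (2.67), CDCA5 (2.58), GTSE1 (2.57), SPC24 (2.55), HJURP (2.55), DEPDC1 (2.54), CDCA3 (2.54) and E2F8 (2.54) act in cytokinesis, sister chromatid cohesion, kinetochores or the S phase transcription program. None of the 15 tested CDK inhibitors, D cyclins and p53 targets passed the test in edgeR or DESeq2, and 6 had an unadjusted p under 0.05 in edgeR, 5 of them higher. CDKN1A, the p21 inhibitor of cyclin-dependent kinases, was 21.5, 67.4 and 218 CPM (lowest, median and highest) in MKI67-high libraries and 9.49, 33.6 and 92.9 CPM in MKI67-low libraries, a log2 fold change of 1.08 ± 0.43 with an edgeR adjusted p of 0.24.

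**Figure D2:**
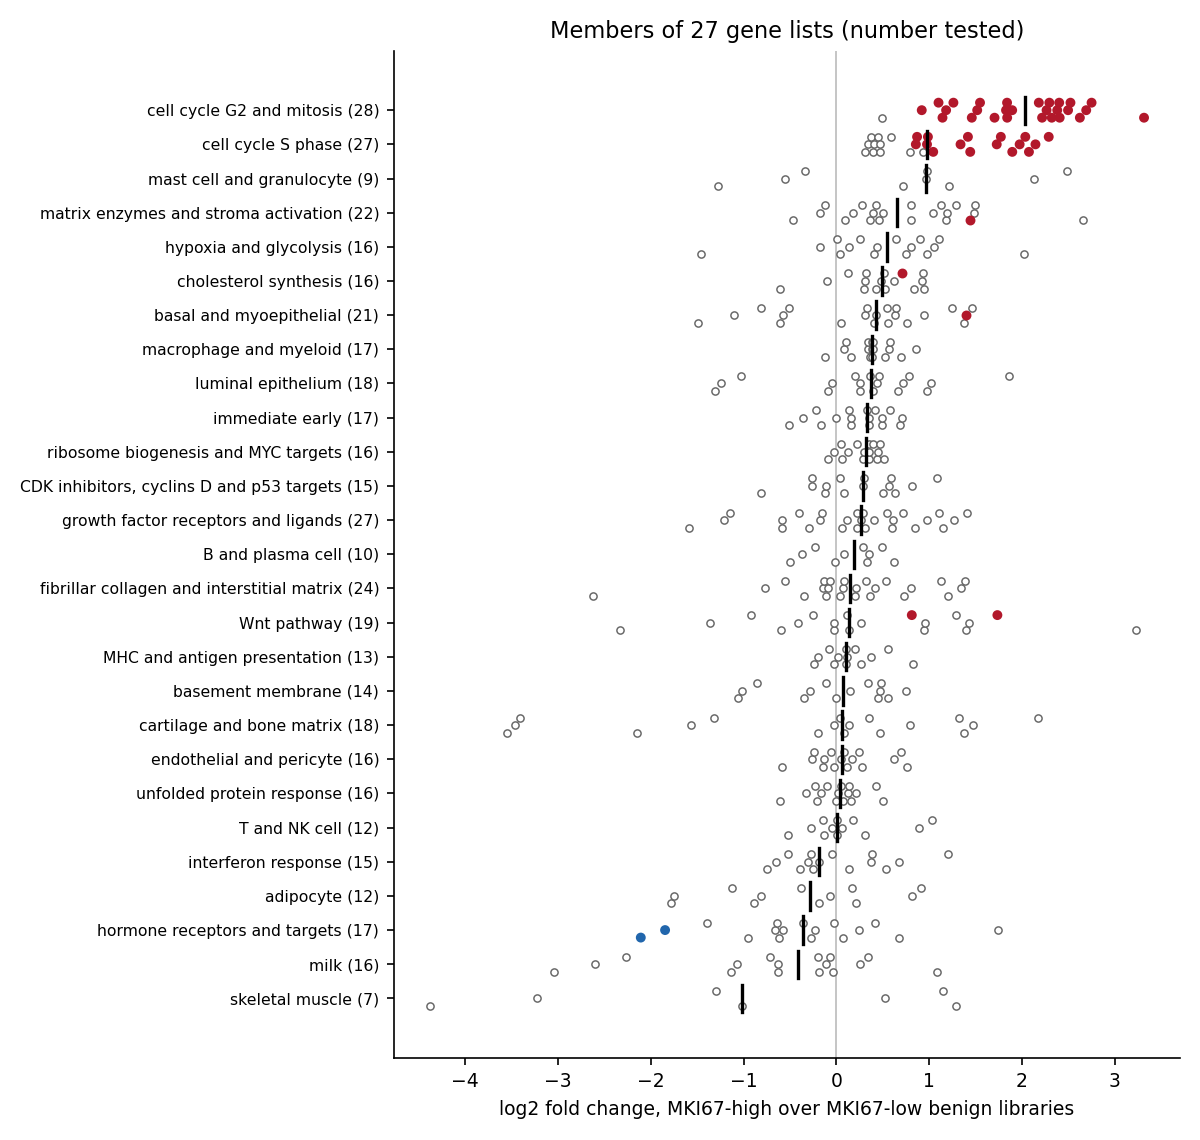
Log2 fold change of MKI67-high over MKI67-low benign libraries (horizontal axis) for the tested members of 27 gene lists (rows, number tested in brackets); filled points passed the test, red higher and blue lower, open points did not, and black bars mark list medians. Apart from the 2 cell cycle lists, at medians of 2.04 and 0.98, no list held more than 2 called genes.

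With dog in the model, ESR1 and the estrogen-regulated gene RERG were lower in MKI67-high than in MKI67-low libraries. Of 17 tested hormone receptors and targets 2 fell and 0 rose, where 0.322% of all genes tested fell, and the list's median was -0.36. The other 15 did not pass and lay on both sides of 0, among them GREB1 (-0.67), AREG (-0.27), XBP1 (-0.23), WNT4 (0.68) and TNFSF11 (1.74). RERG (ENSCAFG00000012854), a RAS-like GTPase known in human breast cells as an estrogen-regulated inhibitor of growth, had a lowest level of 6.85, a median of 22.5 and a highest level of 80.1 CPM in MKI67-high libraries, against 15.0, 44.7 and 85.6 CPM in MKI67-low libraries. The ranges overlapped widely, yet RERG was lower in 4 of 4 dogs with both groups. Its log2 fold change was -1.85 ± 0.35 (edgeR adjusted p = 0.0036). Omitting a dog that gave 1 level only could hardly move this value, and the call held without any 1 of the 16 dogs. It did not hold without dog in the model, where the fold change was -0.53 (adjusted p = 0.69), with dog as a random effect, where it was -0.86 (adjusted p = 0.33), or with sequencing run added (-1.57, adjusted p = 0.28).

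ESR1 (ENSCAFG00000000430) was 6.15, 39.2 and 144 CPM (lowest, median and highest) in MKI67-high libraries and 12.3, 94.5 and 176 CPM in MKI67-low libraries. In dog 29 it was 35.7 CPM in the MKI67-high library and 86.1 CPM in the MKI67-low one, and in dog 36 it was 33.5 and 104 CPM. Dog 66 had 23.9 and 58.0 CPM in its MKI67-high libraries, and 84.7, 115 and 168 CPM in its MKI67-low libraries. Dog 89 had 6.15 CPM in its MKI67-high library, and 15.1 and 176 CPM in its MKI67-low libraries. Every MKI67-high library of these 4 dogs thus lay below every MKI67-low library of the same dog. The log2 fold change was -2.11 ± 0.53 (edgeR adjusted p = 0.039). The call depended on the model and on single dogs: without dog in the model the fold change was -0.83 (adjusted p = 0.58), with dog as a random effect -1.11 (adjusted p = 0.38), and leaving out any of 9 dogs ended it, with -2.39 (adjusted p = 0.20) without dog 66. With RNA integrity number as a covariate ESR1 was -2.06 (edgeR adjusted p = 0.10), and with log2 diameter -1.99 (adjusted p = 0.13). The 13 libraries left out did not lie between the groups, with a median of 20.8 CPM for ESR1.

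The other receptors of hormones did not pass the test. PGR, itself a target of estrogen receptor, was 1.16, 13.7 and 58.4 CPM in MKI67-high and 1.96, 19.8 and 43.5 CPM in MKI67-low libraries, lower in 4 of 4 dogs with both groups, with a log2 fold change of -1.39 ± 0.57 (edgeR adjusted p = 0.25). The prolactin receptor PRLR had a fold change of -0.57 ± 0.69 (edgeR adjusted p = 0.80) and was lower in 3 of the 4 dogs. CCDC170, the neighbor of ESR1 in the human genome, was singled out after its values were seen: it was 3.32, 13.0 and 47.2 CPM in MKI67-high and 6.72, 20.5 and 62.0 CPM in MKI67-low libraries. It fell by 1.69 on the log2 scale (SE 0.43, edgeR adjusted p = 0.042), lower in 4 of 4 dogs, and lost the call without any of 7 dogs, among them dog 66 (adjusted p = 0.11). CCDC170 was -0.59 (adjusted p = 0.70) without dog in the model, and with dog as a random effect -0.84 (adjusted p = 0.51).

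Of 27 tested growth factor receptors and ligands 0 passed in edgeR, with 7 higher and 1 lower at an unadjusted p under 0.05, while DESeq2 called 3 of them, ERBB3, KIT and FGFR2. ERBB2, the HER2 receptor, was 203, 343 and 549 CPM in MKI67-high and 213, 351 and 745 CPM in MKI67-low libraries, with a log2 fold change of -0.15 ± 0.18 (edgeR adjusted p = 0.81). KIT, a receptor of luminal progenitors and of mast cells, had 0.98 ± 0.27 (edgeR adjusted p = 0.059), and ERBB3, the kinase-poor partner of ERBB2, had 0.84 ± 0.28 (adjusted p = 0.14). FGFR2, a receptor of fibroblast growth factors, had -1.59 ± 0.48 (adjusted p = 0.10). LRIG1 belongs to no list here and was chosen after its values were seen: this membrane protein restrains receptors of the EGF family. It was 56.8, 106 and 314 CPM in MKI67-high and 71.3, 180 and 331 CPM in MKI67-low libraries. LRIG1 fell by 1.34 on the log2 scale (SE 0.28, edgeR adjusted p = 0.0094), in 4 of 4 dogs with both groups, and was called without each dog except dog 66 (adjusted p = 0.15) and dog 89 (adjusted p = 0.052). It was not called without dog in the model (-0.37, adjusted p = 0.78), with dog as a random effect (-0.69, adjusted p = 0.39) or in a fit of all 89 libraries (-0.71, adjusted p = 0.27).

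Outside the cell cycle lists, increases that held without any 1 dog included TNS4 and PLEK2, genes of cell adhesion and of the cell skeleton. TNS4 (ENSCAFG00000016044), a tensin of focal adhesions, was chosen after its values were seen. Its level was 14.1, 28.7 and 91.5 CPM in MKI67-high and 6.38, 17.2 and 47.2 CPM in MKI67-low libraries. In dog 29 it was 71.3 CPM in the MKI67-high library and 10.4 CPM in the MKI67-low one, and in dog 36 it was 66.9 and 17.3 CPM. TNS4 rose by 2.07 ± 0.32 (log2, edgeR adjusted p = 0.00039), in 4 of 4 dogs, and it stayed called without any 1 dog and without dog in the model, where it was 1.29 (adjusted p = 0.029), but not with sequencing run added (1.73, adjusted p = 0.14). PLEK2, a pleckstrin that acts on the actin skeleton, was also picked for its values. It was 20.8, 39.4 and 59.2 CPM in MKI67-high and 17.4, 29.97 and 34.4 CPM in MKI67-low libraries, a log2 fold change of 1.00 ± 0.15 (edgeR adjusted p = 0.0004), higher in 4 of 4 dogs and called without any 1 dog. PLEK2 was 0.54 (adjusted p = 0.091) without dog in the model, and with dog as a random effect 0.62 (adjusted p = 0.077).

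KRT13, KRT4 and ABCA12 were among the 12 largest increases. The mucosal keratin KRT13 was 2.30, 15.4 and 77.2 CPM in MKI67-high and 1.93, 3.65 and 83.4 CPM in MKI67-low libraries. Its log2 fold change was 2.80 ± 0.73 (edgeR adjusted p = 0.046). It was higher in 3 of the 4 dogs with both groups and lower in dog 36, and lost the call without any of 5 dogs, dog 66 among them (1.81, adjusted p = 0.56). KRT13 was 0.50 (adjusted p = 0.90) without dog in the model, and with dog as a random effect 1.42 (adjusted p = 0.51). Its partner KRT4 was scarce, with 0.264, 1.85 and 55.6 CPM in MKI67-high and 0, 0.211 and 4.29 CPM in MKI67-low libraries. The fitted log2 fold change of KRT4 was 5.45 ± 1.36 (edgeR adjusted p = 0.038), a size that rests on levels near 0, and it was 3.47 (adjusted p = 0.55) without dog 66 and 3.21 (adjusted p = 0.065) without dog in the model. ABCA12, which carries lipids in keratinocytes, was 1.17, 4.39 and 35.4 CPM in MKI67-high and 0.365, 1.24 and 3.96 CPM in MKI67-low libraries, a log2 fold change of 2.58 ± 0.60 (edgeR adjusted p = 0.024), higher in 4 of 4 dogs, but 1.50 (adjusted p = 0.43) without dog 66.

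Further genes named after their values were seen rose in 4 of 4 dogs. They were the desmosomal cadherin DSG3 (2.17 ± 0.48, edgeR adjusted p = 0.015), the keratin KRT80 (1.64 ± 0.37, adjusted p = 0.019), the integrin subunit ITGB6 (1.57 ± 0.40, adjusted p = 0.041), the GABA receptor subunit GABRP (1.47 ± 0.38, adjusted p = 0.043) and the membrane protease TMPRSS13 (1.19 ± 0.27, adjusted p = 0.019). STRA6, a membrane transporter of retinol, rose by 2.24 ± 0.56 (edgeR adjusted p = 0.038). Each of these 6 lost the call without dog 66, with adjusted p from 0.17 to 0.42, and without dog 36 too. Without dog in the model STRA6 stayed called at 2.14, while DSG3 was 1.28 (adjusted p = 0.18), KRT80 0.78 (adjusted p = 0.33), ITGB6 0.72 (adjusted p = 0.39), GABRP 0.38 (adjusted p = 0.84) and TMPRSS13 0.71 (adjusted p = 0.17). With dog as a random effect none of the 6 was called.

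**Figure D3:**
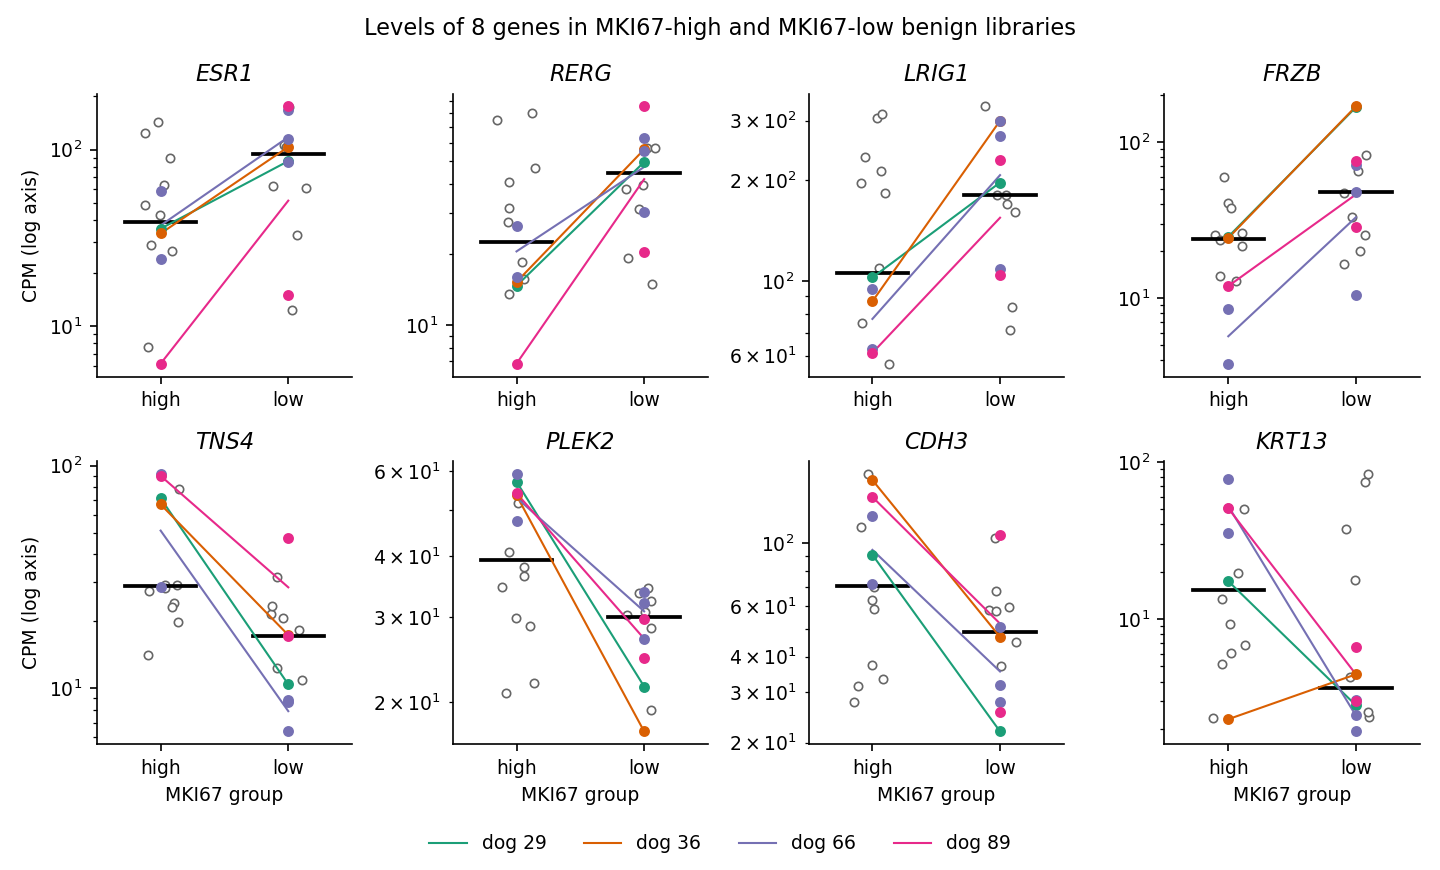
CPM (vertical axis, logarithmic) of 8 genes in MKI67-high (left, n = 14) and MKI67-low (right, n = 14) benign libraries; open points are libraries of dogs with 1 group only, colored points those of the 4 dogs with both groups, colored lines join the geometric means of each such dog, and black bars are group medians. ESR1, RERG, LRIG1 and FRZB are lower and TNS4, PLEK2 and CDH3 higher in the MKI67-high libraries of each of the 4 dogs, while KRT13 is lower in dog 36, and the groups overlap for every gene.

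The lists of epithelial lineage held 1 call. Of 21 tested basal and myoepithelial genes 1 rose and 0 fell, with a median of 0.43. The 1 was CDH3, P-cadherin of basal cells, at 27.6, 70.8 and 174 CPM in MKI67-high and 21.9, 48.7 and 106 CPM in MKI67-low libraries. Its log2 fold change was 1.39 ± 0.29 (edgeR adjusted p = 0.0094), higher in 4 of 4 dogs, and it lost the call without dog 36 (adjusted p = 0.062) or dog 66 (adjusted p = 0.15). CDH3 was 0.71 (adjusted p = 0.32) without dog in the model, and with dog as a random effect 0.78 (adjusted p = 0.37). The basal keratins KRT5 (1.46 ± 0.42, edgeR adjusted p = 0.083) and KRT14 (1.24 ± 0.54, adjusted p = 0.29) did not pass, though both were higher in 4 of 4 dogs. The contractile gene MYH11 had -1.10 ± 0.32 (edgeR adjusted p = 0.092) and the intermediate filament gene VIM -1.49 ± 0.50 (adjusted p = 0.14), both lower in 4 of 4 dogs without passing. Members of this list thus had values on both sides of 0. In edgeR 8 of them were higher and 3 lower at an unadjusted p under 0.05. Of 18 luminal genes 0 passed in edgeR, with 5 higher and 1 lower at an unadjusted p under 0.05. DESeq2 called 3 of them, KIT, ALDH1A3 and GATA3. The aldehyde dehydrogenase ALDH1A3 had 1.87 ± 0.53 (edgeR adjusted p = 0.080), the luminal transcription factor GATA3 -1.03 ± 0.34 (adjusted p = 0.14) and the epithelial adhesion gene EPCAM 0.66 ± 0.24 (adjusted p = 0.18). The summed CPM of the luminal list ranged from 2878 to 8213 in MKI67-high and from 3436 to 10515 in MKI67-low libraries.

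Milk genes did not pass the test and varied over orders of magnitude in both groups. Of 16 tested in edgeR, 0 rose and 0 fell, with a median of -0.41 and 2 lower at an unadjusted p under 0.05, and DESeq2 called STAT5A alone. Kappa-casein (CSN3) was 0.163, 4.17 and 1423 CPM in MKI67-high and 0.208, 6.08 and 5059 CPM in MKI67-low libraries, a log2 fold change of -2.60 ± 1.62 (edgeR adjusted p = 0.51). Beta-casein (CSN2) had -1.14 ± 1.68 (edgeR adjusted p = 0.85) and alpha-lactalbumin (LALBA) -2.27 ± 1.24 (adjusted p = 0.44). The factors STAT5A and STAT5B, which carry the prolactin signal to the casein genes, had -1.07 ± 0.37 (edgeR adjusted p = 0.16) and -0.71 ± 0.27 (adjusted p = 0.21).

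Fat genes did not pass either. Of 12 adipocyte genes tested in edgeR 0 rose and 0 fell, with a median of -0.28, while 3 were lower at an unadjusted p under 0.05 and DESeq2 called PPARG and PLIN4 as lower. Their summed CPM ranged from 232 to 1124 in MKI67-high and from 256 to 1631 in MKI67-low libraries. FABP4, the fatty acid carrier of adipocytes, was 0.0881, 2.07 and 25.03 CPM in MKI67-high and 0, 0.770 and 46.1 CPM in MKI67-low libraries, with 1 MKI67-low library at 0 and a log2 fold change of -0.82 ± 1.34 (edgeR adjusted p = 0.87). PPARG (-1.13 ± 0.36, edgeR adjusted p = 0.12), PLIN4 (-1.79 ± 0.61, adjusted p = 0.15) and CD36 (-1.75 ± 0.74, adjusted p = 0.28), which serve fat cell identity, lipid droplets and fatty acid uptake, were lower in 4 of 4 dogs without passing. With the adipocyte score as a covariate 325 genes were called.

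No immune gene on the lists passed in edgeR. This covered 12 T and NK cell genes, 10 B and plasma cell genes, 17 macrophage and myeloid genes, 9 mast cell and granulocyte genes, 15 interferon response genes and 13 genes of antigen presentation, 0 of which rose or fell. At an unadjusted p under 0.05 there were 5, all higher, and DESeq2 called KIT and IL1RL1 of the mast cell and granulocyte list. The T cell gene CD3E was 2.20, 5.02 and 9.68 CPM in MKI67-high and 1.38, 6.67 and 18.1 CPM in MKI67-low libraries, with -0.05 ± 0.45 on the log2 scale (edgeR adjusted p = 0.98). The B cell gene CD79A had 0.29 ± 0.53 (edgeR adjusted p = 0.89). The macrophage scavenger receptor CD163 was 33.6, 95.9 and 340 CPM in MKI67-high and 12.6, 81.0 and 196 CPM in MKI67-low libraries, with 0.57 ± 0.41 (edgeR adjusted p = 0.60). The mast cell and granulocyte list had a median of 0.96 over its 9 genes, but its members lay on both sides of 0. S100A8 (0.96), S100A9 (1.21), S100A12 (2.13), CSF3R (0.72) and KIT (0.98) were above 0. CPA3 (-1.27), GATA2 (-0.55) and MS4A2 (-0.34) were below it. The mast cell protease CPA3 was at 0 in 2 MKI67-high and 1 MKI67-low libraries. IL1RL1 of the same list, the receptor of interleukin 33, was 3.84, 83.8 and 677 CPM in MKI67-high and 1.90, 52.4 and 214 CPM in MKI67-low libraries. Its log2 fold change was 2.49 ± 0.91 (edgeR adjusted p = 0.19). CIITA, the master regulator of MHC class II genes, had 0.83 ± 0.29 (edgeR adjusted p = 0.17). ZC3H12D, an RNA-cutting protein described in lymphocytes, did rise: it was 1.99, 5.90 and 48.2 CPM in MKI67-high and 0.794, 2.05 and 10.4 CPM in MKI67-low libraries. Its log2 fold change was 2.80 ± 0.51 (edgeR adjusted p = 0.0025), higher in 4 of 4 dogs and called without any 1 dog and without dog in the model. With dog as a random effect ZC3H12D was 1.98 (adjusted p = 0.070).

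The 4 lists of matrix genes held 1 call, an increase. Of 24 fibrillar collagens and interstitial matrix genes 0 passed in edgeR, with 1 higher and 1 lower at an unadjusted p under 0.05, which were the 2 that DESeq2 called, THBS1 and FMOD. COL1A1, the main collagen of connective tissue, was 18.5, 634 and 10144 CPM in MKI67-high and 61.4, 672 and 5828 CPM in MKI67-low libraries, with 1.20 ± 0.83 (edgeR adjusted p = 0.57). COL11A1 had -0.20 ± 0.80 (edgeR adjusted p = 0.95), POSTN 1.35 ± 0.79 (adjusted p = 0.48) and the thrombospondin THBS1 1.38 ± 0.39 (adjusted p = 0.077). Of 22 matrix enzymes and genes of stroma activation 9 were higher and 0 lower at an unadjusted p under 0.05 in edgeR. Over all genes tested 6.85% were higher at such a p. After adjustment 1 of the 22 rose and 0 fell, and the list's median was 0.65. The 1 was TIMP1, an inhibitor of matrix metalloproteinases, at 16.9, 166 and 809 CPM in MKI67-high and 46.4, 97.4 and 233 CPM in MKI67-low libraries. Its log2 fold change was 1.44 ± 0.36 (edgeR adjusted p = 0.041), higher in 3 of the 4 dogs and lower in dog 29, and it lost the call without any of 5 dogs, dog 66 among them (adjusted p = 0.26). TIMP1 was 1.01 (adjusted p = 0.21) without dog in the model and 0.72 (adjusted p = 0.56) with dog as a random effect. Neither the 14 basement membrane genes nor the 18 cartilage and bone matrix genes held a call in edgeR, with 2 and 4 at an unadjusted p under 0.05. DESeq2 called 0 of the first list and 5 of the second, ACAN, COL2A1 and HAPLN1 as lower and COL9A1 and RUNX2 as higher. Over all genes it called 845 of 16151. Aggrecan (ACAN), the large proteoglycan of cartilage, was 0.912, 14.8 and 1671 CPM in MKI67-high and 4.85, 92.6 and 3338 CPM in MKI67-low libraries, with -3.55 ± 1.78 (edgeR adjusted p = 0.38). RUNX2, the bone transcription factor, had 1.48 ± 0.51 (edgeR adjusted p = 0.17).

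Of 19 tested Wnt pathway genes 6 were higher and 1 lower at an unadjusted p under 0.05 in edgeR. After adjustment 2 rose and 0 fell, and the list's median was 0.13. The 2 were the ligand WNT5B (1.74 ± 0.38, edgeR adjusted p = 0.016) and the receptor FZD7 (0.81 ± 0.21, adjusted p = 0.043), both in 4 of 4 dogs. WNT5B was 7.62, 16.9 and 99.2 CPM in MKI67-high and 3.03, 8.48 and 35.9 CPM in MKI67-low libraries. NOTUM, a secreted enzyme that inactivates Wnt ligands, had 3.23 ± 0.91 without passing (edgeR adjusted p = 0.073). FRZB, a secreted Wnt antagonist that is not on the list and was taken by the rule on largest decreases, was 3.80, 24.0005 and 60.3 CPM in MKI67-high and 10.5, 47.9 and 170 CPM in MKI67-low libraries. FRZB fell by 2.26 on the log2 scale (SE 0.52, edgeR adjusted p = 0.021), in 4 of 4 dogs. PORCN, which lipidates Wnt ligands for secretion, is not on the list either and was chosen after its values were seen: it fell by 0.57 (SE 0.15, adjusted p = 0.046). Leaving out dog 66 ended all 4 calls, with adjusted p of 0.16 for WNT5B, 0.28 for FZD7, 0.27 for FRZB and 0.54 for PORCN. None of the 4 was called without dog in the model, with 1.09 for WNT5B, 0.33 for FZD7, -1.36 for FRZB and -0.30 for PORCN (adjusted p from 0.081 to 0.68), or with dog as a random effect.

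Among the 12 largest decreases, MYOC and KYNU came first. KYNU, kynureninase of tryptophan breakdown, was 1.91, 11.1 and 97.5 CPM in MKI67-high and 2.14, 46.8 and 433 CPM in MKI67-low libraries. KYNU fell by 3.57 (log2, SE 0.89, edgeR adjusted p = 0.038), in 4 of 4 dogs. KYAT1, an aminotransferase of the same pathway singled out after its values were seen, was 28.5, 51.1 and 74.4 CPM in MKI67-high and 42.5, 106 and 262 CPM in MKI67-low libraries. It fell by 1.40 (SE 0.34, edgeR adjusted p = 0.029), in 4 of 4 dogs. MYOC, the secreted protein myocilin, was low, with medians of 0.835 CPM in MKI67-high and 2.56 CPM in MKI67-low libraries, and fell by 4.67 (SE 1.14, edgeR adjusted p = 0.034). ANPEP, aminopeptidase N of the cell surface, was 32.1, 294 and 625 CPM in MKI67-high and 142, 739 and 1789 CPM in MKI67-low libraries, and fell by 2.15 (SE 0.55, edgeR adjusted p = 0.043). The matrix protein gene ECM2 fell by 2.42 (SE 0.59, edgeR adjusted p = 0.034), lower in 3 of the 4 dogs. The transposase-derived gene PGBD5 fell by 2.41, the anion exchanger gene SLC4A3 by 2.28, the transcription factor genes ZBTB16 by 1.82 and TBX1 by 1.74, and the vesicle fusion gene STXBP6 by 1.73, with edgeR adjusted p from 0.029 to 0.048, all lower in 4 of 4 dogs. All 9 genes of this paragraph from the list of largest decreases, and KYAT1, lost the call without dog 66. Without dog in the model KYAT1 stayed called at -1.24, and the 9 others were not called, with adjusted p from 0.15 to 0.96: MYOC was -1.26, ECM2 -0.70, SLC4A3 -0.88, TBX1 -0.57 and ZBTB16 -0.22. TSPAN5, a tetraspanin chosen after its values were seen, fell by 1.55 (SE 0.31, edgeR adjusted p = 0.005), in 4 of 4 dogs, and was called without any 1 dog. Group medians of TSPAN5 differed little, with 26.2 CPM in MKI67-high and 31.5 CPM in MKI67-low libraries, and without dog in the model its fold change was -0.13 (adjusted p = 0.96).

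Decreases also included TGFBR3, the co-receptor betaglycan of TGF-beta, at 119, 360 and 834 CPM in MKI67-high and 202, 577 and 1138 CPM in MKI67-low libraries. It fell by 1.67 (log2, SE 0.39, edgeR adjusted p = 0.024), in 4 of 4 dogs, and lost the call without dog 36, 66 or 89 (adjusted p = 0.093, 0.083 and 0.094). TGFBR3 was not called without dog in the model (-0.55, adjusted p = 0.58), with dog as a random effect (-0.82, adjusted p = 0.38) or in a fit of all 89 libraries (-0.87, adjusted p = 0.29). The carboxypeptidase gene CPQ fell by 1.48 (SE 0.32), the cathepsin gene CTSF by 1.16 (SE 0.30), the ganglioside activator gene GM2A by 0.88 (SE 0.18) and the beta-galactosidase gene GLB1 by 0.47 (SE 0.12), with edgeR adjusted p from 0.006 to 0.046. CPQ was 17.5, 38.1 and 97.9 CPM in MKI67-high and 44.7, 76.4 and 204 CPM in MKI67-low libraries. The first 3 were lower in 4 of 4 dogs and GLB1 in 3, and all 4 calls were lost without dog 66. The tensin TNS1, unlike its relative TNS4, fell by 1.06 (SE 0.27, edgeR adjusted p = 0.039), and the clock repressor CRY2 by 0.92 (SE 0.23, adjusted p = 0.036), both in 4 of 4 dogs and both without a call when dog 66 was left out (adjusted p = 0.25 and 0.36). Without dog in the model CPQ was -0.98 (adjusted p = 0.051), CTSF -0.61, GM2A -0.39, GLB1 -0.10, TNS1 -0.26 and CRY2 -0.32 (adjusted p from 0.37 to 0.93 for the last 5). All genes of this paragraph were chosen after their values were seen.

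Metabolic and stress lists held 1 call. Of 16 cholesterol synthesis genes 1 rose, HMGCS1, which makes the precursor HMG-CoA. It was 21.5, 63.0 and 136 CPM in MKI67-high and 27.3, 48.1 and 59.6 CPM in MKI67-low libraries, with 0.71 ± 0.18 (edgeR adjusted p = 0.038), higher in 4 of 4 dogs, and without dog 66 it had an adjusted p of 0.30, and without dog in the model of 0.12. The list's median was 0.49, and 9 of its members had an unadjusted p under 0.05 in this direction, where 6.85% of all genes tested had such a p and were higher and 6.95% had it and were lower. IDI1, a later enzyme of the pathway, had 0.83 ± 0.26 (edgeR adjusted p = 0.11). None of the 16 hypoxia and glycolysis genes passed in edgeR, though 5 were higher and 1 lower at an unadjusted p under 0.05. DESeq2 called 1 of them, the carbonic anhydrase CA9, a target of hypoxia signaling, which in edgeR had 2.03 ± 0.78 (edgeR adjusted p = 0.21). The 16 genes of the unfolded protein response, 17 immediate early genes, 16 genes of ribosome biogenesis, 16 endothelial and pericyte genes and 7 skeletal muscle genes held 0 calls in edgeR, with 8 at an unadjusted p under 0.05, 7 of them higher, and DESeq2 called 1 muscle gene, TNNI2.

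How many genes were called depended on the dogs and the model. Without dog in the model 102 genes were called (91 higher and 11 lower), of which 59 were among the 250, and 249 of the 250 kept their direction. DESeq2 called 845 genes, 422 higher and 423 lower, and all 250 were among them. Leaving out dog 66 left 61 calls and leaving out dog 89 left 99, while leaving out dog 18 gave 399. The 250 genes kept their direction in each of these omissions. With sequencing run added to the model 1 gene was called, again with 250 of 250 genes in the same direction, and the median absolute log2 fold change of the 250 was 1.50, against 1.61 without run. In simple adenomas alone 2 genes were called, and in complex adenomas alone 0, with 1724 genes at an unadjusted p under 0.05 in the same edgeR test.

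Malignant and normal libraries, which the ranking did not use, came from the same dogs and were tested for a slope of each gene on MKI67 log2 CPM with dog in the model. In 22 malignant libraries edgeR called 0 of 13969 genes (0.0% in either direction), with 689 at an unadjusted p under 0.05. Only 4 dogs gave 2 or more malignant libraries, which left 5 residual degrees of freedom. In simulated counts with a 2-fold change per doubling of MKI67, 6 of 100 changed genes were called in the malignant and 89 of 100 in the normal setting. The 0 calls in malignant libraries therefore cannot show that genes lack a slope there. In 26 normal libraries edgeR called 1 of 13773, the kinesin KIF20A, or 0.00726% of genes as higher. The genes called in benign tumors had a median absolute slope of 0.47 log2 units in benign libraries, smaller than the simulated 2-fold change. Slopes of that size were not simulated, so the 1 call in normal libraries cannot show that other genes lack a slope. Without dog in the model 246 genes were called in malignant libraries, 187 with a positive slope (1.34%) and 59 with a negative one (0.422%), and 517 in normal libraries, 415 positive (3.01%) and 102 negative (0.741%).

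ESR1 and RERG had negative slopes in malignant libraries, of -0.84 ± 0.67 and -0.50 ± 0.68 log2 units per doubling of MKI67 with dog in the model (edgeR adjusted p = 0.88 and 0.91). Without dog in the model ESR1 had -0.60 (adjusted p = 0.0095) and RERG -0.51 (adjusted p = 0.012), both called. In normal libraries their slopes were -0.07 ± 0.23 and -0.02 ± 0.16 (edgeR adjusted p = 0.98 and 0.995). TNS4 had a slope of -0.37 ± 0.47 in malignant and 0.11 ± 0.13 in normal libraries, and WNT5B -1.10 ± 0.49 and -0.28 ± 0.19, with edgeR adjusted p from 0.86 to 0.92. ANPEP had -0.52 ± 0.86 in malignant and -0.54 ± 0.13 in normal libraries (edgeR adjusted p = 0.93 and 0.36), and in normal libraries without dog in the model -0.42 (adjusted p = 0.011). Slopes without dog in the model are printed here only for these called cases, and not for TNS4 or WNT5B.

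Of the genes that rose in benign tumors outside the cell cycle lists, 116 of 147 tested in malignant libraries had a positive slope (78.9%), against 54.0% of all genes with a positive benign difference. For the genes that fell it was 37 of 48 (77.1%), against 55.3%. In normal libraries the shares were 114 of 133 (85.7%) against 53.1%, and 44 of 49 (89.8%) against 58.9%. Without dog in the model the malignant shares were 140 of 147 (95.2%) against 65.2%, and 39 of 48 (81.25%) against 55.7%. The normal shares were then 120 of 133 (90.2%) against 55.6%, and 41 of 49 (83.7%) against 55.7%. These shares run over genes that move together and over dogs common to all classes, and many of the increases are themselves genes of cell division. Whether the slopes differ between tissue classes was not tested.

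**Figure D4:**
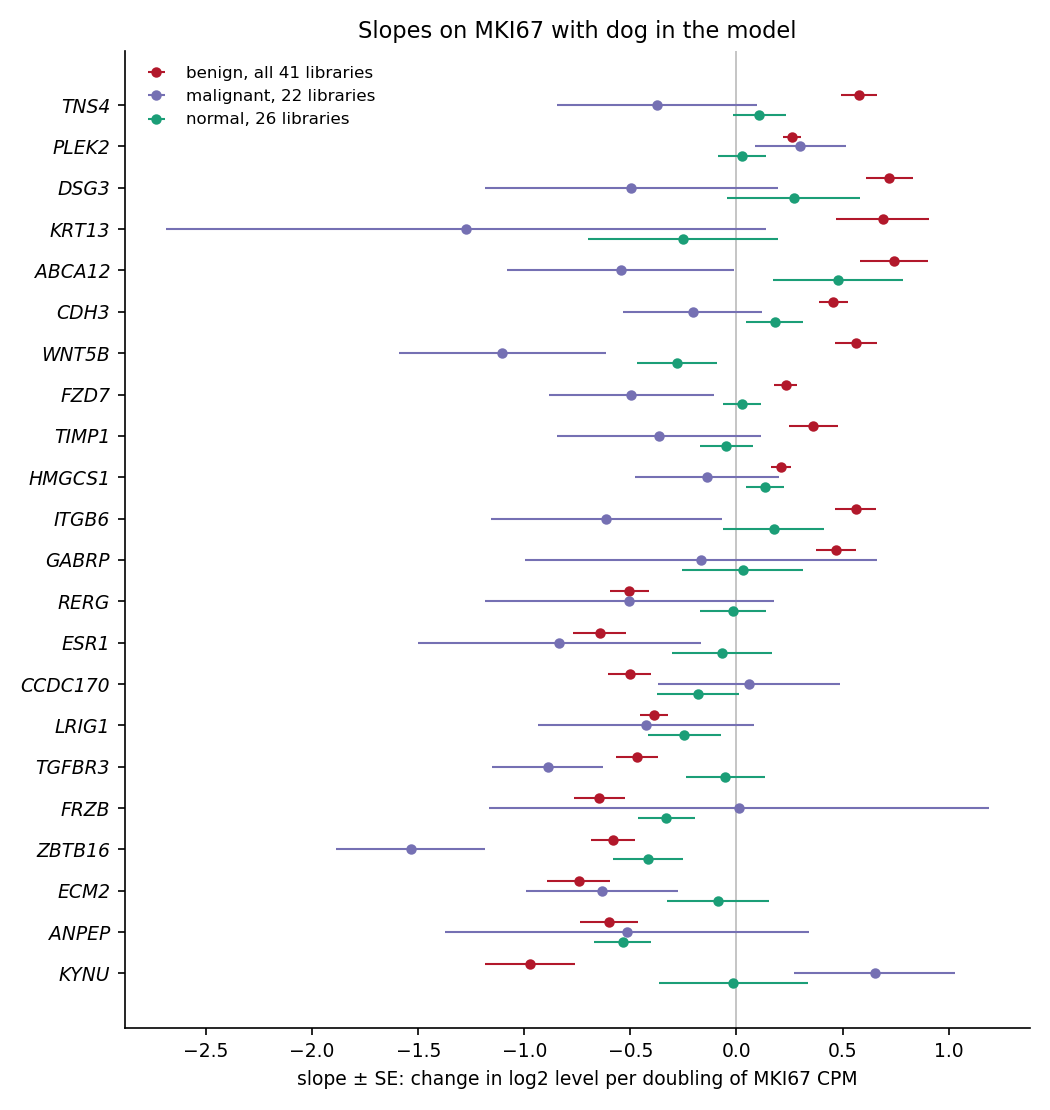
Slope of each gene on MKI67 (horizontal axis, change in log2 level per doubling of MKI67 CPM, with SE bars) in all 41 benign (red), 22 malignant (purple) and 26 normal (green) libraries, with dog in the model. The benign slopes share their libraries with the choice of genes; in malignant and normal libraries no gene shown was called, and TNS4 and WNT5B had negative malignant slopes of -0.37 and -1.10.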

How the data were processed

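Members and gene lists were chosen with earlier results of these data known. The RNA was polyA-selected and read on an Illumina HiSeq2000, per the labels. Alignment was to CanFam3.1 with HISAT2, and read quality was looked at with FastQC (submitters' processing notes, without versions). The authors deposited read counts per gene under 32496 Ensembl identifiers. No source used here names the counting program, annotation release or strand setting, and reads of overlapping or antisense genes may be mixed. A second table that the authors deposited holds a score per gene symbol and library, scaled to a mean of 0 and an SD of 1 per gene by steps that are not stated. Its MKI67 column made the groups, and between dogs that column did not always follow MKI67 CPM. Its 11503 symbols were paired with count rows by the correlation of their values within dogs (lowest 0.993, next best row at most 0.974). Rows without a gene were dropped: on average 37.4% of reads were not aligned, 16.0% lay outside genes and 0.078% were ambiguous.

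Counts were tested with edgeR 4.0.16 in R 4.3.3 (TMM, filterByExpr with minimum count 10 and total 15, robust glmQLFit, glmQLFTest), with dog as a fixed block and Benjamini-Hochberg adjustment over all genes tested, at a threshold of 0.05. Dog is the animal itself, so the replicate pairing comes from the labels: benign libraries of the same dog correlated at a mean of 0.195 over 45 pairs, against -0.037 between dogs. Middle libraries entered the fit as a level of their own. CPM were computed on library sizes scaled by TMM. Library measures used 100000 permutations within dogs. The labels do not say whether samples of 1 dog are separate tumors. With dog as a fixed block, p-values measure the spread among samples of the same dog and not the spread from dog to dog. The scripts were tested on simulated data.

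The named genes are a set of 16 (ESR1, PGR, PRLR, ERBB2, KRT5, KRT14, CSN3, CSN2, LALBA, FABP4, COL1A1, COL11A1, ACAN, CD3E, CD79A, CD163), the 12 largest increases and 12 largest decreases of called genes that have a symbol, mean log2 CPM of 1 or more and no place in the cell cycle lists, and up to 4 members of each of 27 lists. Others are said to be chosen after their values were seen. The contrast was repeated without dog, with dog as random effect (limma 3.58.1), in other sample sets, with groups by CPM, with covariates, with RLE size factors, without the filter, with DESeq2 1.42.0, against a 1.5-fold change and without each dog in turn.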

Additional observations from a re-analysis of the deposited data

How the results depend on the processing

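The count of called genes, 250 in the benign contrast, moved by more than 1.5 times to 102 without the replicate block (dog not in the model), 76 with dog as a random effect, 833 with groups made from MKI67 CPM, 1035 as a slope on MKI67, 2 in simple adenomas, 0 in complex adenomas, 137 with RNA integrity number and 107 with diameter as covariates, 1 with sequencing run added, 845 with DESeq2 and 71 in a test against a 1.5-fold change. It ranged from 61 to 399 over omissions of 1 dog. In only the 4 dogs with both groups, an alternative chosen after seeing the data, it was 215. The slope counts were 246 in malignant and 517 in normal libraries without the replicate block, against 0 and 1 with it. In normal libraries they were 0 among libraries with a known RNA integrity number and 0 with it as a covariate (657 and 484 genes at an unadjusted p under 0.05 in edgeR). Omission of 1 dog gave 0 in malignant and 0 to 18 in normal libraries. The cause of these moves was not tested. Restricted sets also held fewer libraries. The 4 library measures kept their side of the threshold in both alternatives.

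Of 55 named genes called, 14 kept the call without any 1 dog; 40 lost it without dog 66, 29 without dog 89, 28 without dog 36, 25 without dog 82 and 22 without dog 29. Without the replicate block 10 of the 55 stayed called, with dog as a random effect 16, in all 89 libraries 32 and with sequencing run added 1. None of the 55 changed direction in any alternative run. Reversals concerned only genes that were not called. PRLR became 0.11 without the block, 1.19 in complex adenomas and 0.37 with run added; ERBB2 0.35 in complex adenomas and 0.0819 with run added. CSN3 was 1.597 and CSN2 0.45 in simple adenomas, CSN2 2.11 and LALBA 0.40 in complex adenomas, FABP4 0.56 with dog as a random effect and 0.86 with the adipocyte score, and COL1A1 -0.14 in simple adenomas. COL11A1 was 0.0471 with dog as a random effect, 0.0643 in the 28 libraries alone, 0.11 as a slope, 0.17 with tumor type as covariate, 0.80 in simple and 1.17 in complex adenomas, 0.0365 with diameter, 0.31 with run and 0.10 in the 4 dogs. CD3E was 0.0447 as a slope and 0.28 with the adipocyte score. CD79A was -0.0478 without the block, -0.32 with dog as a random effect, -0.15 in the 28 libraries, -0.0504 in all 89, -0.37 in complex adenomas, -0.0196 with run and -0.22 in the 4 dogs. Over omissions of 1 dog, CSN2 ranged from -1.78 to 0.11, COL11A1 from -0.72 to 0.74, CD3E from -0.25 to 0.37 and CD79A from -0.0328 to 0.84.

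Only 4 dogs held both groups, and levels below 1 CPM, as in some libraries for KRT4, MYOC and FABP4, rest on few reads.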
